A study of Mus musculus with 4 samples.

Results

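Periportal sinusoidal endothelial cells line the sinusoids next to the portal tract. Here they were chosen by the UMI counts of 4 genes, Efnb2, Ntn4, Ltbp4 and Msr1, in single-cell RNA-seq libraries of mouse liver. A cell was taken as an endothelial cell (EC) when 9 endothelial genes (Pecam1, Kdr, Stab2, Clec4g, Ptprb, Cdh5, Egfl7, Oit3 and Dnase1l3) held at least 0.5% of its UMIs. Clec4f, Vsig4, Cd5l and C1qa of Kupffer cells (KCs) had to stay under 0.3%, Dcn, Lrat, Reln and Colec11 of hepatic stellate cells under 0.1%, and Ptprc at 0. Liver sinusoidal ECs (LSECs) were the ECs with fewer than 3 UMIs of Vwf. Of these, a cell was periportal when the 4 periportal genes together had at least 3 UMIs and at least 2 times the UMIs of the 4 pericentral genes Wnt2, Kit, Cdh13 and Rspo3. This rule selected 2917 of 6639 ECs and of 30362 cells in all. The mirrored rule gave 1869 pericentral LSECs, and 87 ECs with at least 3 UMIs of Vwf, a gene of large-vessel endothelium, served as a second comparison.

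The libraries were made from primary liver cells of 4 mice, 1 mouse and 1 library per genotype: WT, YAPKO, TAZKO and DKO. In the knockout mice, Cre recombinase under the albumin promoter (Alb-Cre) removes floxed Yap, floxed Taz or, in DKO, both, in hepatocytes (HCs) and biliary epithelial cells (BECs), and the deletion is not directed to the ECs described here. HCs and non-parenchymal cells were isolated separately and mixed at 3 to 7 before loading on the 10x 3′ platform, so that shares of all cells reflect this mixing. The labels list no treatment, and the age, sex and strain background of these mice are not given in the sources used here. With 1 mouse per genotype there is no test between genotypes: differences between libraries have no replicate check and are given as values with intervals that cover counting error only.

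Values of the 4 libraries are given in the order WT, YAPKO, TAZKO and DKO. The deposited matrices hold 66259687, 85989454, 49022089 and 77411746 UMIs. Barcodes with fewer than 500 or more than 6000 genes, or with mitochondrial transcripts above 10% of UMIs, were set aside, which left 7155, 6275, 8638 and 8294 cells. Among them were 959, 650, 786 and 522 periportal LSECs with a median of 5301, 7596, 4335.5 and 5539 UMIs per cell. Summed over the periportal LSECs, the libraries hold 5167471, 5221432, 3511047 and 3197699 UMIs, and all levels below are UMIs in 1000000 UMIs of such sums (CPM). YAPKO cells were the deepest and TAZKO cells the shallowest. No barcode of a periportal LSEC occurred in more than 1 library, while pairs of libraries shared 9 to 26 barcodes of kept cells.

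The liver sinusoid is lined by a thin, fenestrated endothelium without a continuous basement membrane, which takes up waste molecules from the blood through scavenger receptors. Blood runs from the portal vein and hepatic artery to the central vein, and LSECs differ along this path: cells near the central vein secrete Wnt ligands and R-spondin 3 that instruct neighbouring HCs, and cells near the portal tract express genes in part shared with arterial endothelium. Ephrin-B2, encoded by Efnb2, is a membrane ligand of arterial endothelium, netrin-4 is a secreted matrix protein, Ltbp4 binds latent TGF-beta in the matrix, and Msr1 is the class A scavenger receptor, which macrophages also express.

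The targeted genes were checked first, in cells with at least 10% of UMIs from 6 hepatocyte genes (Alb, Apoa1, Apoa2, Ttr, Fabp1 and Serpina1c). In these HC-rich cells Yap1 was at 21.0, 4.89, 47.1 and 5.31 CPM, and Wwtr1, which encodes TAZ, at 5.04, 11.5, 0.964 and 2.20 CPM. Yap1 was thus lowest in the libraries labelled YAPKO and DKO, and Wwtr1 in those labelled TAZKO and DKO. UMIs from the 3′ end can lie outside the deleted part of a gene, so that residual counts do not measure the deletion. In periportal LSECs Yap1 was at 41.0, 43.1, 68.6 and 41.3 CPM and Wwtr1 at 166, 171, 169 and 180 CPM.

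Among ECs, periportal LSECs made up 46.6% (95% Clopper-Pearson interval 44.4 to 48.8), 47.1% (44.4 to 49.8), 41.7% (39.5 to 44.0) and 39.6% (37.0 to 42.3). The threshold of 3 UMIs is easier to reach in deeper cells. After each EC was thinned to 2000 UMIs, the shares were 36.2%, 35.5%, 34.1% and 26.0% of the 1891, 1325, 1658 and 1260 ECs that were deep enough. With Msr1 left out of the 4 genes they were 33.3%, 37.8%, 30.9% and 28.4%. DKO had the lowest share in each of these 3 readings, but among cells with 500 to 6000 UMIs the shares were 46.3%, 40.4%, 39.3% and 42.3%, with TAZKO lowest.

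The values that chose the cells are a description only. The median sum of the 4 genes was 9, 14, 8 and 9 UMIs per cell. Msr1 supplied 47.4%, 41.8%, 36.0% and 40.7% of these UMIs, Ntn4 21.8%, 24.2%, 33.4% and 26.6%, Ltbp4 23.1%, 25.1%, 22.5% and 19.2%, and Efnb2 7.73%, 8.90%, 8.07% and 13.6%. Of the 2917 cells, 1080 had UMIs of all 4 genes, 1207 of 3, 542 of 2 and 88 of 1 gene. Msr1 was that gene in 66 of the 88 cells, and 498 cells (17.1%) would have had fewer than 3 UMIs without it.

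A list of 16 portal and arterial endothelial genes that the rule does not use summed to 4341, 4736, 4431 and 4888 CPM in these 498 cells, against 5297, 6563, 5980 and 6240 CPM in all periportal LSECs and 2451, 3228, 2946 and 2867 CPM in pericentral LSECs. Kupffer cell genes stood at 72.7, 74.6, 58.5 and 63.6 CPM in them against 71.6, 109, 24.6 and 135 CPM in the other members, and the 6 hepatocyte genes at 7234, 1299, 12212 and 4015 against 6560, 2025, 5700 and 3541 CPM. Both were thus higher in the cells that depend on Msr1 in TAZKO and, by little for the Kupffer cell genes, in WT. In DKO only the hepatocyte genes were higher in these cells, and in YAPKO neither. Cells just inside the threshold, with a sum of 3 UMIs (52, 8, 68 and 31 cells), had 3913, 4420, 4248 and 4646 CPM of the list. Cells just outside, with 2 UMIs and the same ratio (66, 15, 69 and 26 cells), had 3579, 3965, 3789 and 3213 CPM. Both groups at the threshold thus lay between the pericentral and the periportal sums in every library. The list was chosen with earlier results of these data known, so that its sums describe the cells only. The cells inside were above those outside, but the 95% intervals overlapped in WT, YAPKO and TAZKO (3627 to 4216 against 3323 to 3850 CPM in WT). Hepatocyte genes were lower inside, at 8285, 1693, 8517 and 4044 CPM against 12063, 3308, 14262 and 6846 CPM outside. At the ratio limit, cells with 2 to under 3 times as many periportal as pericentral UMIs had 4133, 4758, 4751 and 5109 CPM, and LSECs with 1 to under 2 times as many had 3301, 4359, 4173 and 4463 CPM.

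Each of the 8 zone genes was then left out in turn, and the cells were chosen by the other 7. This describes whether each gene follows the others. It is no independent check of the label, since members were chosen with earlier results of these data known. Efnb2 was then at 149, 178, 177 and 220 CPM in periportal and 28.4, 40.8, 46.2 and 60.3 CPM in pericentral LSECs. Ntn4 was at 428, 493, 785 and 457 against 81.9, 100.2, 170 and 91.5 CPM, Ltbp4 at 431, 498, 497 and 316 against 135, 127, 105 and 28.0 CPM, and Msr1 at 940, 870, 817 and 692 against 194, 204, 170 and 128 CPM. Each periportal gene was thus higher in the cells that the other genes called periportal, in 4 of 4 libraries, with mean log2 ratios of 2.08 ± 0.23 for Efnb2, 2.30 ± 0.08 for Ntn4, 2.35 ± 0.80 for Ltbp4 and 2.27 ± 0.14 for Msr1 (SD, n = 4 libraries). The pericentral genes went the other way in 4 of 4 libraries, with mean log2 ratios of -2.51 ± 0.32 for Wnt2, -2.16 ± 0.07 for Kit, -3.35 ± 0.90 for Cdh13 and -5.31 ± 0.82 for Rspo3. The spread was widest for Cdh13, which stood at 49.3 CPM in periportal LSECs of DKO and between 11.4 and 16.9 CPM in the other libraries, and for Rspo3 and Ltbp4.

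**Figure D1:**
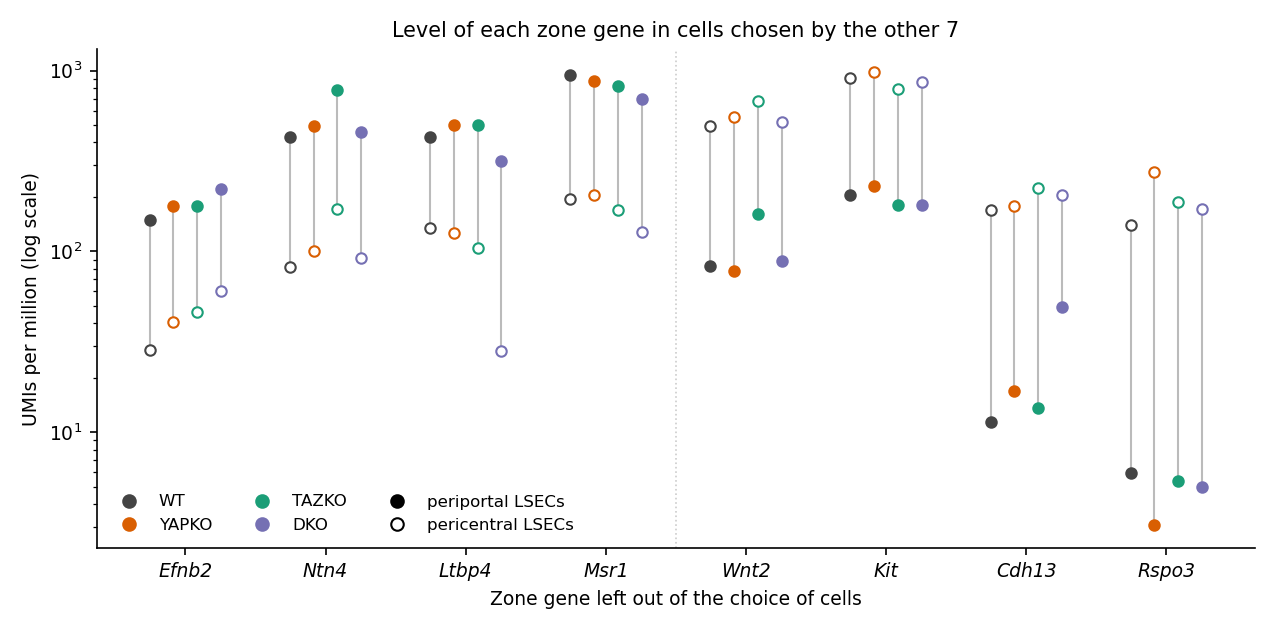
Level in CPM (log scale) of each of the 8 zone genes in periportal (filled) and pericentral (open) LSECs chosen by the other 7 genes, with 1 colour per library and a grey line joining the pair of a library. The 4 periportal genes lie higher in periportal LSECs and the 4 pericentral genes lower, in 4 of 4 libraries.

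Periportal and pericentral LSECs of the same mouse were then compared for all genes outside the rule. UMIs were summed per library and zone, and edgeR's quasi-likelihood test was fitted over the 8 sums with the library as a block. The 4 mice differ in genotype, so that the fit gives the zone difference they have in common, and its p-values measure the spread of that difference over 4 mice. Of 11149 genes tested, 1419 (12.7%) passed an adjusted p of 0.05 (Benjamini-Hochberg), 654 (5.87%) higher and 765 (6.86%) lower in periportal LSECs. The number depends on the model. DESeq2 called 330 higher and 389 lower, all of them among the 1419, and edgeR without the library block called 51 and 67, also all among them. Without WT the counts were 415 and 472, and in cells thinned to 2000 UMIs 405 and 486.

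Vegfc, on chromosome 8 (54077606 to 54187096, GRCm38, ENSMUSG00000031520), had the largest log2 fold change of the named genes higher in periportal LSECs. It encodes the growth factor VEGF-C, a ligand of the receptor VEGFR3. Its level was 18.2, 22.4, 16.8 and 14.7 CPM in periportal and 0.325, 0, 1.39 and 0 CPM in pericentral LSECs. It was higher in periportal than in pericentral LSECs in 4 of 4 libraries (log2 fold change 5.55 ± 0.42 SE, adjusted p = 2.92e-07 by edgeR's quasi-likelihood test with Benjamini-Hochberg adjustment). Adgrg6 (chromosome 10, 14402583 to 14545659, ENSMUSG00000039116), an adhesion G protein-coupled receptor, was at 30.4, 33.9, 62.9 and 35.3 against 1.95, 0, 1.39 and 0.653 CPM. Mecom (chromosome 3, 29951296 to 30548008, ENSMUSG00000027684), a zinc finger transcription factor of arterial endothelium and blood stem cells, was at 85.5, 97.5, 159 and 122 against 8.44, 7.78, 9.71 and 10.4 CPM. For both, the ranges of the zones did not overlap, with log2 fold changes of 5.28 ± 0.28 for Adgrg6 and 3.64 ± 0.11 for Mecom (SE), and an adjusted p of 4.95e-09 and 3.37e-11 by edgeR with Benjamini-Hochberg adjustment.

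The other 9 genes named by size were Ly6c1 (log2 fold change 5.27), Slc45a4 (5.25), Csf2rb (4.06), Cyp1a1 (3.55), Tox2 (3.47), Gucy1b1 (3.46), Esm1 (3.44), Mal (2.72) and Htra1 (2.54), each higher in periportal LSECs in 4 of 4 libraries, although Cyp1a1 in DKO rests on 1 UMI against 0. Ly6c1, a small surface protein of endothelial and myeloid cells, stood at 30.0, 55.3, 4.84 and 29.4 CPM in periportal LSECs, and was thus low in TAZKO. The soluble guanylate cyclase subunit gene Gucy1b1, part of the receptor for nitric oxide, was at 24.8, 32.9, 25.1 and 11.6 against 2.27, 2.59, 3.24 and 0.653 CPM. Htra1, a secreted serine protease, was at 46.4, 24.1, 24.8 and 32.2 against 7.79, 1.62, 5.09 and 7.83 CPM. In these 2 genes every periportal value was above every pericentral value. Csf2rb encodes the shared receptor chain for GM-CSF, IL-3 and IL-5, and has a close paralog, Csf2rb2, so that its counts are uncertain.

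The calls of Cyp1a1 and Esm1 depended on the library block. The aryl hydrocarbon receptor target Cyp1a1 was at 7.74, 3.64, 44.1 and 0.313 CPM in periportal and 0, 0.648, 4.16 and 0 CPM in pericentral LSECs, most of it in TAZKO. The endothelial proteoglycan gene Esm1, a marker of VEGF-stimulated endothelium, was at 34.6, 13.2, 8.26 and 13.1 against 0, 4.54, 0.463 and 0.979 CPM. Without the library block neither passed the test in edgeR with Benjamini-Hochberg adjustment, with an adjusted p of 0.440 for Cyp1a1 and 0.0979 for Esm1. Over their alternatives the adjusted p of edgeR or DESeq2 ranged from 1.31e-24 to 0.440 for Cyp1a1 and from 1.08e-38 to 0.0979 for Esm1.

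Of the named genes lower in periportal LSECs, Wnt9b, a Wnt ligand of the central vein region, had the largest difference. It was at 0.581, 0.575, 0 and 0.625 CPM in periportal and 31.8, 31.4, 41.6 and 39.5 CPM in pericentral LSECs, so that it was close to absent from periportal cells in 4 of 4 libraries (log2 fold change -6.13 ± 0.27 SE, edgeR with Benjamini-Hochberg adjustment, adjusted p = 1.15e-09). Lhx6, a LIM homeobox transcription factor gene, was at 0.194, 1.15, 1.14 and 0 against 17.9, 29.5, 45.8 and 29.0 CPM. Ackr3, a scavenging receptor for the chemokine CXCL12, was at 0.581, 1.15, 2.56 and 2.50 against 19.1, 55.1, 36.5 and 53.2 CPM. Between the zones, both were likewise nearly restricted to the pericentral sums, with log2 fold changes of -5.44 and -4.67. Ackr3 was also lower in periportal LSECs than in Vwf-positive ECs (-5.17).

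Ramp3, a partner of the calcitonin receptor-like receptor, had a log2 fold change of -4.32, the semaphorin gene Sema3d -4.28, the connexin gene Gjc1 -4.73 and the plakoglobin gene Jup -2.78. Lmcd1 (-2.79), the serpin gene Serpina3b (-2.56) and the lincRNA gene Gm13431 (-2.81) complete the genes named by size, with Lfng and Selp, which are described with their lists. Serpina3b belongs to a multigene family with near-identical copies, and its counts are uncertain. Each of these genes was lower in periportal LSECs in 4 of 4 libraries.

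**Figure D2:**
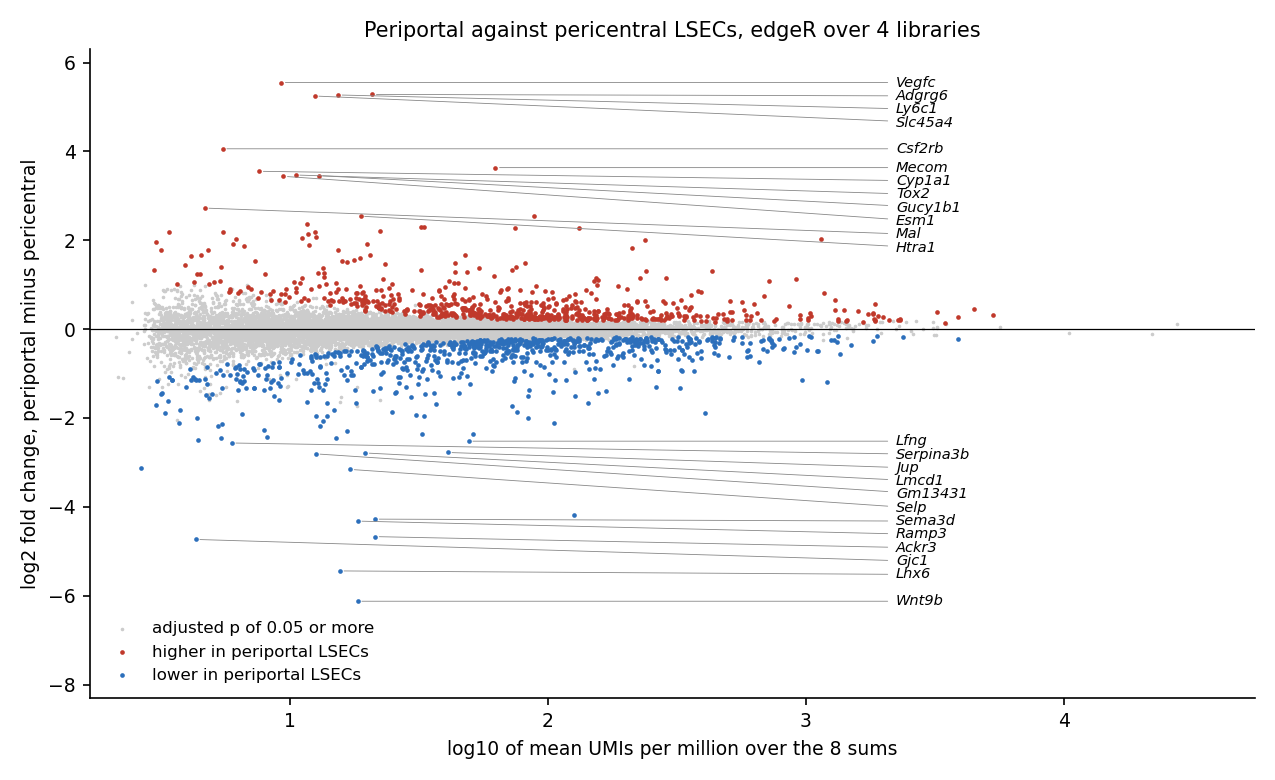
Log2 fold change of periportal minus pericentral LSECs against the log10 of the mean CPM over the 8 sums, 1 point per gene tested with edgeR (11149 genes). Genes past an adjusted p of 0.05 are red (654 higher) or blue (765 lower), and the 12 named genes in each direction are labelled.

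**Figure D3:**
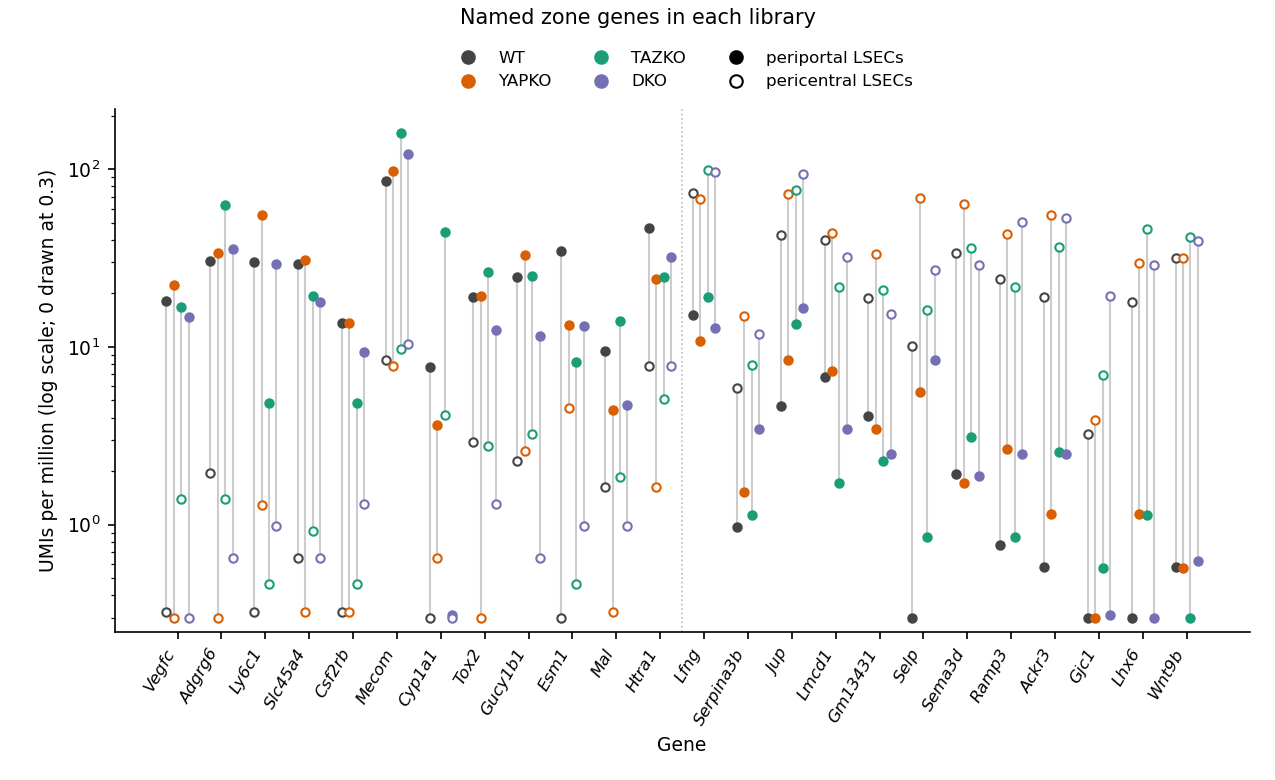
Level in CPM (log scale, 0 drawn at 0.3) of the 24 genes named by size in periportal (filled) and pericentral (open) LSECs of each library. In 4 of 4 libraries the 12 genes on the left lie higher and the 12 on the right lower in periportal LSECs, with Cyp1a1 in DKO at 1 UMI against 0.

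Lists of genes by function were read beside the shares over all tested genes, 5.87% higher and 6.86% lower, and the median of all genes, -0.01. The lists were chosen with earlier results of these data known. Their counts describe the zones and are no independent check of the label. Of 16 portal and arterial genes outside the rule, 13 could be tested, and 11 were higher and 2 lower in periportal LSECs, with a median log2 fold change of 1.14. Besides Mecom and Adgrg6, Cd34 was at 50.7, 62.4, 51.8 and 54.1 against 2.92, 12.6, 8.79 and 20.6 CPM (log2 fold change 2.30), and Ly6a, which encodes Sca-1, at 1921, 2366, 1336 and 1693 against 611, 636, 296 and 321 CPM (2.02). In both, each periportal value was above each pericentral value. The fatty acid and thrombospondin receptor gene Cd36 was at 793, 1147, 1374 and 1585 against 221, 510, 813 and 881 CPM (1.14), higher in periportal LSECs of each library although the ranges overlap. The list was not uniform: the arterial connexin gene Gja4 (94.2, 293, 167 and 246 against 183, 528, 194 and 407 CPM, -0.70) and the laminin receptor gene Bcam (-1.44) were lower in periportal LSECs.

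All 8 pericentral endothelial genes outside the rule were tested and lower in periportal LSECs, with a median of -1.88. The thrombomodulin gene Thbd, an anticoagulant cofactor, was at 39.3, 90.0, 68.9 and 77.6 against 139, 277, 213 and 237 CPM (log2 fold change -1.66). Rab3b, a gene of vesicle release, was at 32.5, 52.3, 31.3 and 40.0 against 114, 251, 118 and 205 CPM (-2.11). In these genes the zones did not overlap. Selp, the leukocyte adhesion molecule P-selectin, was at 0, 5.55, 0.854 and 8.44 against 10.1, 68.4, 16.2 and 27.1 CPM (-3.16), lower in periportal LSECs of 4 of 4 libraries but with a level that differed widely between libraries. Without the library block Selp did not pass the test, with an adjusted p of 0.227 by edgeR with Benjamini-Hochberg adjustment, within a range of 1.36e-60 to 0.227 over its alternatives in edgeR or DESeq2.

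Notch signalling sets arterial identity, and 12 of its 18 listed genes could be tested: 6 were higher and 2 lower in periportal LSECs, with a median of 0.22. The ligand gene Dll4 was at 126, 104, 139 and 109 against 47.4, 34.4, 50.4 and 38.8 CPM (log2 fold change 1.49), and the ligand gene Jag1 at 20.5, 37.3, 39.3 and 40.3 against 11.0, 13.6, 15.3 and 9.14 CPM (1.47). Both ligands were higher in periportal LSECs with no overlap of the zones. The target gene Hes1 was at 364, 268, 304 and 410 against 98.3, 100.2, 140 and 229 CPM (1.31), also without overlap. Among genes that modify the receptor, Mfng was higher (0.69) and Lfng lower, the latter at 15.1, 10.7, 19.1 and 12.8 against 73.7, 67.4, 99.0 and 96.3 CPM (-2.52). The receptor gene Notch1 was slightly higher (0.30), as was the feedback inhibitor Nrarp (0.76), and the ligand gene Dll1 was lower (-0.86). Notch2, Notch4, Rbpj and Rfng did not pass.

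The rule used Efnb2, and 4 of 16 other ephrins and Eph receptors could be tested. The ligand gene Efnb1 (X chromosome, 99136130 to 99148991, ENSMUSG00000031217) was at 185, 316, 581 and 445 against 57.8, 67.1, 154 and 98.9 CPM (log2 fold change 2.02), and Efna1 at 99.9, 60.3, 118 and 89.4 against 57.4, 31.1, 59.7 and 45.7 CPM (0.92). The venous receptor gene Ephb4, which binds ephrin-B2, went the other way by a smaller amount (206, 240, 280 and 271 against 266, 297, 348 and 309 CPM, -0.29). Epha2 did not pass. Of the netrins and their receptors other than Ntn4, 4 of 10 could be tested. Ntn1 was lower (4.84, 3.45, 4.84 and 6.57 against 9.74, 5.84, 13.9 and 8.81 CPM, -0.92), whereas the receptor genes Unc5a, Unc5b and Neo1 did not pass.

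In the list of VEGF, angiopoietin and apelin signalling, 3 of 11 tested genes were higher and 6 lower, with a median of -0.18. Next to Vegfc and Esm1, the vessel destabilizing ligand gene Angpt2 was at 31.4, 18.8, 17.1 and 31.6 against 8.11, 9.40, 6.94 and 10.1 CPM (log2 fold change 1.51). The VEGF-C receptor gene Flt4 was lower by a small amount (730, 623, 681 and 627 against 887, 780, 704 and 704 CPM, -0.20), as were the receptor genes Flt1 (-0.26), Tek (-0.19), Tie1 (-0.20) and Nrp2 (-0.18). Vegfa was at 8.13, 7.09, 10.3 and 4.38 against 20.8, 10.1, 31.9 and 10.1 CPM (-1.21).

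Of Wnt, R-spondin and HGF genes, 1 of 12 tested was higher, near the 5.87% of all genes, and 4 were lower (6.86% of all genes), with a median of -0.11. Next to Wnt9b and the Wnt modulator gene Dkk3 (log2 fold change -0.89), the coreceptor gene Lrp5 (65.8, 53.1, 62.4 and 43.5 against 88.0, 80.7, 106 and 74.7 CPM, -0.62) and the receptor gene Fzd4 (-0.28) were lower in periportal LSECs. The beta-catenin gene Ctnnb1 was higher (348, 373, 478 and 413 against 242, 270, 314 and 370 CPM, 0.44). Hgf, a growth factor for HCs, was at 136, 180, 108 and 145 against 124, 201, 121 and 131 CPM and did not pass.

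BMP and TGF-beta genes were split, with 6 of 16 tested higher and 5 lower and a median of 0.073. The extracellular BMP modulator gene Bmper was at 8.71, 12.4, 18.8 and 34.4 against 2.60, 3.57, 6.94 and 6.85 CPM (log2 fold change 1.90), and the receptor gene Bmpr2 at 740, 655, 670 and 668 against 487, 423, 478 and 402 CPM (0.62). In both genes every periportal value was above every pericentral value. Bmp2, which controls hepcidin in HCs, was lower (1693, 1663, 1530 and 1728 against 1984, 1989, 2079 and 1916 CPM, -0.26), and Bmp6 did not pass. Of the TGF-beta receptor genes, Eng (-0.36), Tgfbr1 (-0.55) and Tgfbr2 (-0.24) were lower and Acvrl1 (0.46) higher.

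Of 15 tested genes of the basement membrane and elastic matrix, 3 were higher and 9 lower in periportal LSECs, with a median of -0.22. Lama4, a laminin chain of endothelial basement membranes, was at 195, 209, 208 and 209 against 99.3, 99.2, 90.2 and 99.8 CPM (log2 fold change 1.08), a narrow range in both zones. The fibrillin gene Fbn1, whose protein binds latent TGF-beta complexes in the matrix, was at 5.61, 19.0, 20.2 and 36.9 against 0.649, 2.27, 3.24 and 12.4 CPM (2.19). The collagen IV genes Col4a1 (406, 591, 446 and 522 against 605, 857, 531 and 778 CPM, -0.48) and Col4a2 (-0.55), the nidogen gene Nid2 (-1.66) and Emilin1 (-0.51) were lower.

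In the shear stress list, 1 of 14 genes was higher (5.87% of all genes) and 7 lower (6.86%), with a median of -0.24. The flow-induced factor genes Klf2 (570, 704, 724 and 461 against 568, 647, 535 and 485 CPM) and Klf4 and the nitric oxide synthase gene Nos3 did not pass. The cyclooxygenase gene Ptgs1 was at 130, 144, 195 and 132 against 327, 362, 480 and 323 CPM (log2 fold change -1.31), and Plvap, which encodes a protein of endothelial diaphragms, was lower as well (-0.80). S1pr1 was higher (0.33). Of 24 tested endothelial transcription factor genes, 9 were higher and 4 lower, with a median of 0.065. After Mecom, the largest differences were those of Sox17 (60.2, 76.0, 99.97 and 110 against 52.6, 37.3, 62.4 and 60.4 CPM, 0.70), an arterial factor, Meis1 (0.68) and Ets1 (0.51). Gata4, needed for sinusoidal identity, and Maf did not pass.

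Of 15 tested scavenger genes, 4 were higher and 6 lower with a median of -0.14. Stab1 (1092, 949, 920 and 739 against 1539, 1326, 1370 and 992 CPM, log2 fold change -0.49) and the hyaluronan receptor gene Lyve1 (-0.45) were lower. The receptor gene Gpr182 (1471, 1536, 1960 and 1503 against 1076, 1182, 1423 and 1095 CPM, 0.44) and Cd209b (1.27) were higher. The immune complex receptor gene Fcgr2b did not pass. DESeq2 called 4 higher and 2 lower, without Mrc1, Lyve1, Scarb1 and Scarf1. Of 14 tested genes for adhesion and chemokines, 2 were higher and 7 lower, with a median of -0.35. The chemokine gene Cxcl9 (150, 111, 91.7 and 144 against 61.7, 62.9, 49.5 and 107 CPM, 0.85) and the cytokine receptor gene Il6st (0.65) were higher, whereas Ackr3 (-4.67), Selp (-3.16), Ccl2 (-2.08), Cxcl1 (-0.87), Icam2 (-0.68), Cxcl10 (-0.37) and Icam1 (-0.32) were lower. DESeq2 called 2 higher and 3 lower, without Ccl2, Cxcl1, Cxcl10 and Icam1.

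Of 20 interferon-stimulated genes, 11 were higher in periportal LSECs, beside 5.87% of all tested genes, 0 were lower and 9 did not pass, with a median of 0.26. Irf7, a transcription factor of the interferon response, was at 108, 185, 87.7 and 61.0 against 61.7, 106, 46.3 and 34.9 CPM (log2 fold change 0.83), and Isg15 at 229, 290, 107 and 128 against 152, 183, 84.6 and 56.4 CPM (0.68). Both were higher in periportal LSECs of each library with the smallest difference for Isg15 in TAZKO. For the 0 lower genes, edgeR also had 0 at an unadjusted p under 0.05, and DESeq2 called 7 higher and 0 lower. Of 11 MHC genes, the peptide transporter gene Tap2 was higher (0.38), beside 5.87% of all tested genes, and the other 10 did not pass. Tap2 lost its call in DESeq2, without the block, without DKO and in thinned cells.

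Of 19 Hippo pathway genes, 4 were higher (5.87% of all genes) and 1 lower (6.86%), with a median of 0.15. Wwtr1 was at 166, 171, 169 and 180 against 116, 136, 115 and 153 CPM (log2 fold change 0.41) and Yap1 at 41.0, 43.1, 68.6 and 41.3 against 32.1, 37.9, 46.7 and 34.9 CPM (0.34), each higher in periportal LSECs of 4 of 4 libraries by a small amount. Lats2 (0.25) and Taok1 (0.21) were higher and Amotl2 lower (-0.20). Of 14 tested YAP and TAZ target genes, 3 were higher and 4 lower, with a median of 0.04. Ccn2, which encodes the matrix protein CTGF, was at 163, 199.9, 21.1 and 52.2 against 70.4, 60.3, 6.94 and 24.8 CPM (1.40), and Cdc42ep3 was higher as well (1.03). The immediate early genes, which also respond to tissue dissociation, had 2 of 16 called, Jun (-0.64) and Ier3 (-0.42), both lower, beside 12.7% of all tested genes called in either direction. DESeq2 called 1 of the 16.

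The calls of list genes depended on the model and the libraries. Of 134 list genes that passed, 94 also passed in DESeq2, 22 in edgeR without the library block, and 98, 105, 125 and 114 without WT, YAPKO, TAZKO and DKO. In cells thinned to 2000 UMIs 105 passed. Genes described above that did not pass in DESeq2 were Yap1, Lats2, Taok1, Amotl2, Flt4, Tek, Tie1, Nrp2, Ntn1, Dll1, Acvrl1, Tgfbr1, Tgfbr2, Lyve1, Mrc1, Scarb1, Scarf1, Icam1, Ccl2, Cxcl1, Cxcl10, Tap2 and Ier3. Their log2 fold changes lay between -2.08 for Ccl2 and 0.46 for Acvrl1. Without the library block, Mecom, Adgrg6, Cd34, Ly6a, Efnb1, Dll4, Jag1, Lama4, Thbd, Rab3b, Wnt9b and Lfng were among the genes that passed, and Hes1, Fbn1, Sox17, Wwtr1 and the interferon genes were not. Yap1 did not pass without WT or without TAZKO, and Vegfa and Cd209b did not pass in thinned cells, where Bmper and Esm1 had too few UMIs to be tested.

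**Figure D4:**
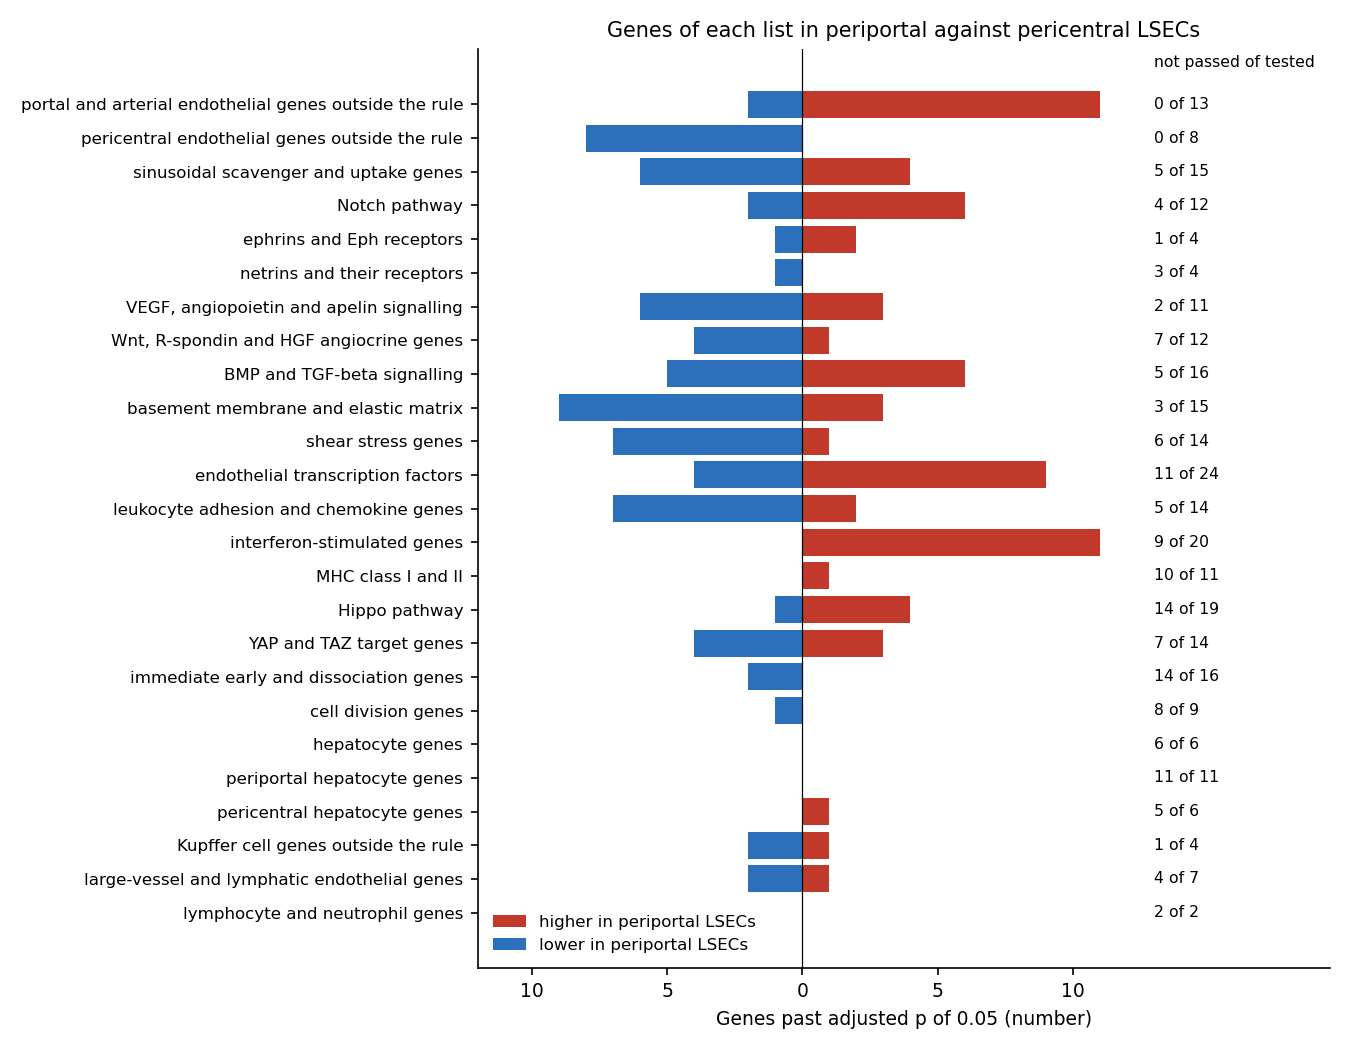
Number of genes in each of the lists shown past an adjusted p of 0.05 (edgeR, 4 libraries), higher (red, right) or lower (blue, left) in periportal than in pericentral LSECs, with the number that did not pass of those tested. Portal and arterial genes and interferon genes lie mainly to the right (11 each), and pericentral genes (8) and matrix genes (9) to the left.

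RNA of other cell types was measured in the same sums. The 6 hepatocyte genes, most abundant Alb, summed to 6687, 1975, 6556 and 3616 CPM in periportal and 7506, 1420, 8663 and 3953 CPM in pericentral LSECs. In edgeR, 0 of these 6 genes and 0 of 11 periportal hepatocyte genes passed, 0 of either at an unadjusted p under 0.05, and 0 of either in DESeq2. Hepatocyte RNA differed more between libraries than between zones. Of 6 tested pericentral hepatocyte genes, only Glul passed, beside 12.7% of all tested genes in either direction. It was at 446, 655, 572 and 784 against 208, 289, 223 and 269 CPM (log2 fold change 1.30). Glul encodes glutamine synthetase, and here it was higher in the periportal endothelium.

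The log2 ratio of periportal to pericentral hepatocyte genes was therefore compared between the zones with and without Glul. In periportal LSECs, Alb held 77.9% of the UMIs of the periportal list and Glul 82.5% of those of the pericentral list. With Glul the ratio is thus mostly Alb over Glul. With Glul the log2 difference, periportal minus pericentral LSECs, ran from -1.43 in DKO to -0.50 in YAPKO (mean -0.93 ± 0.39 SD, n = 4, exact sign-flip permutation test, two-sided, p = 0.125, the smallest p that 4 libraries allow). Without Glul, an alternative chosen after seeing the data, the mean was 0.075 (exact permutation test, two-sided, p = 0.75). Alb still dominated the periportal list, so that neither value measures the zones of hepatocyte RNA as a whole.

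The 8 Kupffer cell genes outside the rule, most abundant C1qb, summed to 71.8, 107, 29.1 and 124 CPM in periportal and 134, 471, 39.8 and 134 CPM in pericentral LSECs. Of 4 tested, C1qb (log2 fold change -2.00) and C1qc (-1.08) were lower and Lyz2 higher (0.67) in periportal LSECs. Of all tested genes, 6.86% were lower and 5.87% higher. Over the periportal sums, 0 of the 8 were at 0. DESeq2 called 0 higher and 1 lower (2 and 2 at an unadjusted p under 0.05 in edgeR), and C1qc and Lyz2 also lost their calls without WT. The 10 lymphocyte and neutrophil genes, most abundant S100a9, summed to 26.3, 21.3, 3.70 and 13.4 against 14.6, 20.1, 17.1 and 6.20 CPM, and 0 of 2 tested passed in edgeR (1 at an unadjusted p under 0.05, 0 in DESeq2). The 11 large-vessel and lymphatic genes, most abundant Bgn, summed to 792, 697, 783 and 695 against 1185, 968, 1284 and 1025 CPM. Among 7 tested, Ackr1 (0.66) was higher and Bgn (-0.63) and Emcn (-0.63) lower, beside the same shares of all tested genes. Msr1 is expressed by Kupffer cells, and cells chosen without it gave 651 genes higher and 782 lower. The part of KC RNA in the zone differences was not tested.

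At least 3 UMIs of 6 division genes were found in 0 of 959, 14 of 650, 6 of 786 and 0 of 522 periportal LSECs. The shares were 2.15% in YAPKO (95% Clopper-Pearson interval 1.18 to 3.59) and 0.763% in TAZKO (0.281 to 1.65). The counts of 0 allow a share of up to 0.384% in WT and 0.704% in DKO by the exact interval (0.313% and 0.575% at 3 cells of the total). These limits hold for cells with 3 such UMIs, not for dividing cells with fewer. In pericentral LSECs the counts were 7 of 533, 13 of 371, 0 of 511 and 4 of 454. Mki67, a gene of dividing cells, had 0, 116, 47 and 1 UMIs in periportal and 85, 158, 2 and 90 UMIs in pericentral LSECs. Its periportal UMIs came from 13 cells in YAPKO, 6 in TAZKO and 1 in DKO. Of 9 tested cell division genes, 1, Hmgb2 (log2 fold change -0.38), was lower in periportal LSECs and 0 were higher in edgeR, with a median of -0.76. Of all tested genes, 6.86% were lower and 5.87% higher. At an unadjusted p under 0.05 edgeR had 0 higher and 6 lower, and DESeq2 called 0 in either direction. Hmgb2 also lost its call without the block, without WT, without DKO and in thinned cells.

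The second comparison set periportal LSECs beside the 13, 43, 12 and 19 Vwf-positive ECs. Of 9963 genes tested with edgeR and the library block, 788 (7.91%) passed, 404 (4.06%) higher and 384 (3.85%) lower in periportal LSECs. The Vwf-positive sums are small, with 101375, 385208, 74277 and 136023 UMIs. DESeq2 called 167 higher and 287 lower, edgeR without the library block 117 and 163, and edgeR on thinned cells 218 and 122. Without YAPKO, which holds 43 of the 87 Vwf-positive ECs, 262 were higher.

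Endothelin-1, encoded by Edn1, was at 2.52, 10.3, 5.70 and 14.1 CPM in periportal LSECs and 651, 314, 269 and 375 CPM in Vwf-positive ECs (log2 fold change -5.58). Nrg1, a growth factor of the EGF family, was at 2.90, 2.87, 17.7 and 6.88 against 266, 143, 821 and 198 CPM (-5.56), and the matrix gene Fbln2 at 2.13, 2.68, 5.70 and 12.8 against 39.5, 228, 350 and 397 CPM (-5.50). The ranges of these genes did not overlap. Entpd1 (-4.97), Atp13a3 (-4.70) and Emp1 (-4.68) were lower in periportal LSECs by like amounts in 4 of 4 libraries.

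Among genes higher in periportal LSECs, Esm1, F10 and Hoxb5os had 0 UMIs in the Vwf-positive ECs of 4 libraries. A floor of 3 UMIs in the Vwf-positive sums lies at 29.6, 7.79, 40.4 and 22.1 CPM. In periportal LSECs Esm1 was above this floor in WT (34.6 CPM) and YAPKO (13.2 CPM) alone. The coagulation factor gene F10 (17.6, 6.32, 24.2 and 10.3 CPM) and Hoxb5os (14.7, 7.66, 9.97 and 12.8 CPM) were below it in each library, so that a difference within a library was not detectable at this depth. Maml3, Cd209b and Opa3 had 1 UMI each in all Vwf-positive ECs. The calls of these 6 genes are not firm: each lost its call in at least 1 alternative, among them DESeq2 for 5 of the 6 and the fit without YAPKO for the same 5. Hoxb5os is an antisense gene, and its counts are uncertain.

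Of 15 scavenger genes, 10 were higher in periportal LSECs than in Vwf-positive ECs (4.06% of all genes) and 0 lower (0 lower also at an unadjusted p under 0.05 in edgeR and in DESeq2, which called 8 higher), among them Fcgr2b (log2 fold change 1.74), Lyve1 (1.69), Ctsl (1.53) and Stab1 (1.30). Of 14 tested portal and arterial genes, 1 was higher and 10 lower (3.85% of all genes), with Adgrg6 (-3.37), Ly6a (-1.83) and Mecom (-1.55) lower. Periportal LSECs thus lay between pericentral LSECs and Vwf-positive ECs for the sum of that list, which was 10003, 12193, 12346 and 13351 CPM in the Vwf-positive ECs. Vegfc was also lower than in Vwf-positive ECs (-3.30). Of 7 tested pericentral genes, 4 were lower, Wnt9b (-6.44), Thbd, Fabp4 and Selp (-3.74) among them, and 2 higher. DESeq2 called 4 of the 7 lower and 0 higher. Immediate early genes were lower in periportal LSECs in 11 of 15, for instance Fos (-2.18). Hepatocyte genes were higher in 5 of 6, with a sum of 4281, 1687, 3514 and 2154 CPM in Vwf-positive ECs, and the part of that RNA in the comparison was not tested.

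The last comparison sets periportal LSECs of each knockout library beside WT. Ratios are log2 ratios of CPM with exact 95% conditional binomial intervals. The 3 comparisons share the WT library, so that a value particular to the WT mouse enters all of them. At least 2 times was used as the limit, among genes with at least 50 UMIs in a pair of libraries. In YAPKO, 117 of 10205 genes (1.15%) were higher and 268 (2.63%) lower, 3.77% in all. In TAZKO, 426 of 10022 (4.25%) were higher and 224 (2.24%) lower, 6.49% in all. In DKO, 192 of 9828 (1.95%) were higher and 253 (2.57%) lower, 4.53% in all. With TMM scaling the TAZKO split turned to 287 higher and 374 lower, as the median log2 ratio of all genes moved from 0.16 to 0.01, while the splits of YAPKO (102 and 288) and DKO (164 and 282) kept their order.

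Timp2, on chromosome 11 (118301069 to 118355740, ENSMUSG00000017466), which encodes an inhibitor of matrix metalloproteinases, led the genes higher in both YAPKO and DKO. It was at 18.6, 135, 320 and 374 CPM in periportal LSECs, a log2 ratio to WT of 2.86 (2.55 to 3.19) in YAPKO, 4.11 (3.81 to 4.42) in TAZKO and 4.33 (4.03 to 4.65) in DKO. In pericentral LSECs it was at 37.0, 170, 538 and 416 CPM. WT was the lowest library in both zones. Flrt2, a gene of an adhesion protein with fibronectin and leucine-rich repeats, was at 13.7, 60.1, 38.7 and 121 CPM, with log2 ratios of 2.13 (1.75 to 2.52) in YAPKO and 3.14 (2.77 to 3.53) in DKO. In pericentral LSECs its ratios were 1.83, 1.64 and 2.26, again with WT lowest.

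Igfbp5, an IGF binding protein gene, was at 1.35, 8.04, 9.97 and 17.5 CPM in periportal LSECs and had 0 or 1 UMI in each pericentral sum. Its log2 ratios were 2.57 (1.40 to 3.97), 2.88 (1.69 to 4.30) and 3.69 (2.56 to 5.07). Cib3, a calcium-binding protein gene, was at 1.94, 8.24, 1.42 and 46.0 CPM and Edn1 at 2.52, 10.3, 5.70 and 14.1 CPM. Both were higher in YAPKO and DKO, while the TAZKO interval of Cib3 spans 0 (-2.34 to 1.24). The pseudogene Gpr137b-ps (log2 ratios 2.06 in YAPKO and 2.57 in DKO) has a near-identical parent gene and is uncertain.

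Of the genes lower in both YAPKO and DKO, Mup7, Mup11, Mup14 and Mup21 belong to the major urinary protein family of HCs, whose near-identical copies make each single count uncertain. Mup21 was at 181, 8.04, 40.4 and 16.9 CPM in periportal and 221, 4.21, 61.1 and 8.81 CPM in pericentral LSECs, and Mup11 at 433, 17.0, 0.285 and 1.88 CPM in periportal LSECs. WT was highest in each. The sum of the 6 hepatocyte genes in the same cells moved with YAPKO and DKO, at log2 ratios of -1.76, -0.03 and -0.89, and its part in these values was not tested. Rn7sk, a small nuclear RNA gene with many related copies, was at 20.9, 1.92, 0.570 and 2.19 CPM and is uncertain.

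The heat shock gene Hspa1b was at 430, 9.96, 117 and 37.8 CPM, with log2 ratios of -5.43 (-5.86 to -5.04), -1.88 (-2.03 to -1.72) and -3.51 (-3.78 to -3.24). Hspa1a, a near-identical copy, was at 255, 4.98, 57.8 and 33.8 CPM, so that the counts of either are uncertain but both were highest in WT. The list of 16 immediate early and dissociation genes summed to 2279, 924, 1048 and 1097 CPM. At least 2 times lower were 6, 8 and 6 of the 16 genes in YAPKO, TAZKO and DKO, and 1, 0 and 0 were higher. Of all genes, 2.63%, 2.24% and 2.57% were lower and 1.15%, 4.25% and 1.95% higher. Fos was at 254, 28.9, 27.6 and 49.7 CPM and Egr1 at 230, 35.4, 25.6 and 26.0 CPM. The WT library thus had the highest level of this list, in periportal as in pericentral LSECs (2266, 923, 1314 and 1259 CPM).

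In TAZKO, the genes with the largest ratios were mostly pseudogenes or genes at or near 0 in some libraries. Gm8420 was at 249, 346, 0.285 and 267 CPM, Gm14094 at 75.7, 111, 0 and 95.4 CPM and Gm11942 at 34.1, 42.3, 0 and 31.9 CPM. Rps3a3 was at 0.968, 0.958, 807 and 1329 CPM and Rps15a-ps8 at 0.581, 1.92, 82.0 and 278 CPM. These ribosomal protein-like and predicted genes have near-identical copies, and their values are uncertain. Ifi44l had 0 UMIs in WT, YAPKO and DKO and 104 CPM in TAZKO, against a WT floor of 0.581 CPM at 3 UMIs. Gm4841 was at 0.774, 1.72, 72.6 and 67.9 CPM and Tnfrsf10b, a receptor for the death ligand TRAIL, at 0.581, 1.15, 57.2 and 37.5 CPM. The last pair and the Rps genes were high in TAZKO and DKO and near 0 in WT and YAPKO, in pericentral as in periportal LSECs.

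Portal and arterial genes were next set beside WT. Of 13 portal and arterial genes with enough UMIs, 2, 3 and 3 were at least 2 times higher in YAPKO, TAZKO and DKO, beside 1.15%, 4.25% and 1.95% of all genes, and 0 were lower. Gja4 was at 94.2, 293, 167 and 246 CPM, Bcam at 11.2, 26.4, 26.2 and 34.7 CPM and Efnb1 at 185, 316, 581 and 445 CPM, each lowest in WT. In the Notch list, 0, 1 and 1 genes were at least 2 times higher and 0 lower. Dll4 and Hes1, given above, stayed within 2 times of WT in the 3 knockout libraries.

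The genes named next are members of 4 lists, chosen after their values were seen. Over all genes, 1.15%, 4.25% and 1.95% were at least 2 times higher and 2.63%, 2.24% and 2.57% lower, with medians of 0.05, 0.16 and 0.06. Of the matrix genes, 2, 1 and 3 were at least 2 times higher in YAPKO, TAZKO and DKO and 0, 1 and 0 lower, with medians of 0.21, 0.25 and 0.29. Of the shear stress genes, 2, 3 and 3 were higher and 0 lower (0.29, 0.56 and 0.40). In the BMP and TGF-beta list, 0, 3 and 2 were higher and 0 lower (-0.058, -0.029 and 0.047), and in the VEGF list 0 were higher and 1 lower in each library (-0.045, -0.099 and -0.19). Fbn1 was at 5.61, 19.0, 20.2 and 36.9 CPM, a log2 ratio of 1.76, 1.85 and 2.72, and Bmper at 8.71, 12.4, 18.8 and 34.4 CPM. Nos3 was at 50.7, 66.8, 178 and 148 CPM and Plvap at 58.6, 111, 180 and 185 CPM. For each of these 4 genes WT was the lowest library. Sparc, a collagen-binding matrix protein gene, was at 2591, 2512, 1005 and 2724 CPM, low in TAZKO alone. Esm1 was highest in WT, with log2 ratios of -1.39 (-1.81 to -0.98), -2.07 and -1.40.

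Of 11 MHC genes, 2, 0 and 4 were at least 2 times higher and 0, 0 and 1 lower. Of all genes, 1.15%, 4.25% and 1.95% were higher and 2.63%, 2.24% and 2.57% lower. The medians of the MHC list were 0.35, 0.26 and -0.059 against 0.05, 0.16 and 0.06 over all genes. The whole list, 49.2% of it B2m, summed to 7413, 7020, 6743 and 5547 CPM, lowest in DKO. The class II genes named next were highest in DKO. H2-Ab1 was at 6.97, 16.3, 9.68 and 47.2 CPM, H2-Aa at 7.74, 10.3, 10.3 and 43.2 CPM and Cd74, the invariant chain, at 16.8, 27.6, 26.2 and 92.3 CPM. In pericentral LSECs Cd74 was at 28.6, 48.0, 26.4 and 50.2 CPM. The Kupffer gene sum in periportal LSECs was also highest in DKO (124 CPM), but by less, with a log2 ratio of 0.79 for DKO against 2.45 for Cd74. The part of RNA from antigen-presenting cells was not tested. The 20 interferon-stimulated genes summed to 4030, 4877, 2762 and 2649 CPM, lower in TAZKO and DKO than in WT and YAPKO, with 41.2% of the list from Bst2. Of the 20, 1, 0 and 0 were at least 2 times higher and 0, 2 and 0 lower, beside the above shares of all genes. Their medians were 0.35, -0.086 and -0.45.

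Some genes of the YAP and TAZ target list differed between the libraries. Ccn1 was at 35.6, 7.47, 7.41 and 2.50 CPM, with log2 ratios of -2.25, -2.27 and -3.83, and Ccn2 at 163, 199.9, 21.1 and 52.2 CPM, with 0.30 in YAPKO, -2.95 in TAZKO and -1.64 in DKO. WT was thus the highest library for Ccn1 but not for Ccn2. Of the 14, 13 and 14 list genes with enough UMIs, 1, 1 and 2 were at least 2 times higher and 1, 2 and 2 lower, with medians of -0.07, 0.19 and -0.02 against 0.05, 0.16 and 0.06 over all genes. Of 19 Hippo pathway genes, 0, 1 and 0 were at least 2 times higher, beside 1.15%, 4.25% and 1.95% of all genes, and 0 were lower, beside 2.63%, 2.24% and 2.57%. Their medians were -0.028, 0.42 and 0.069.

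**Figure D5:**
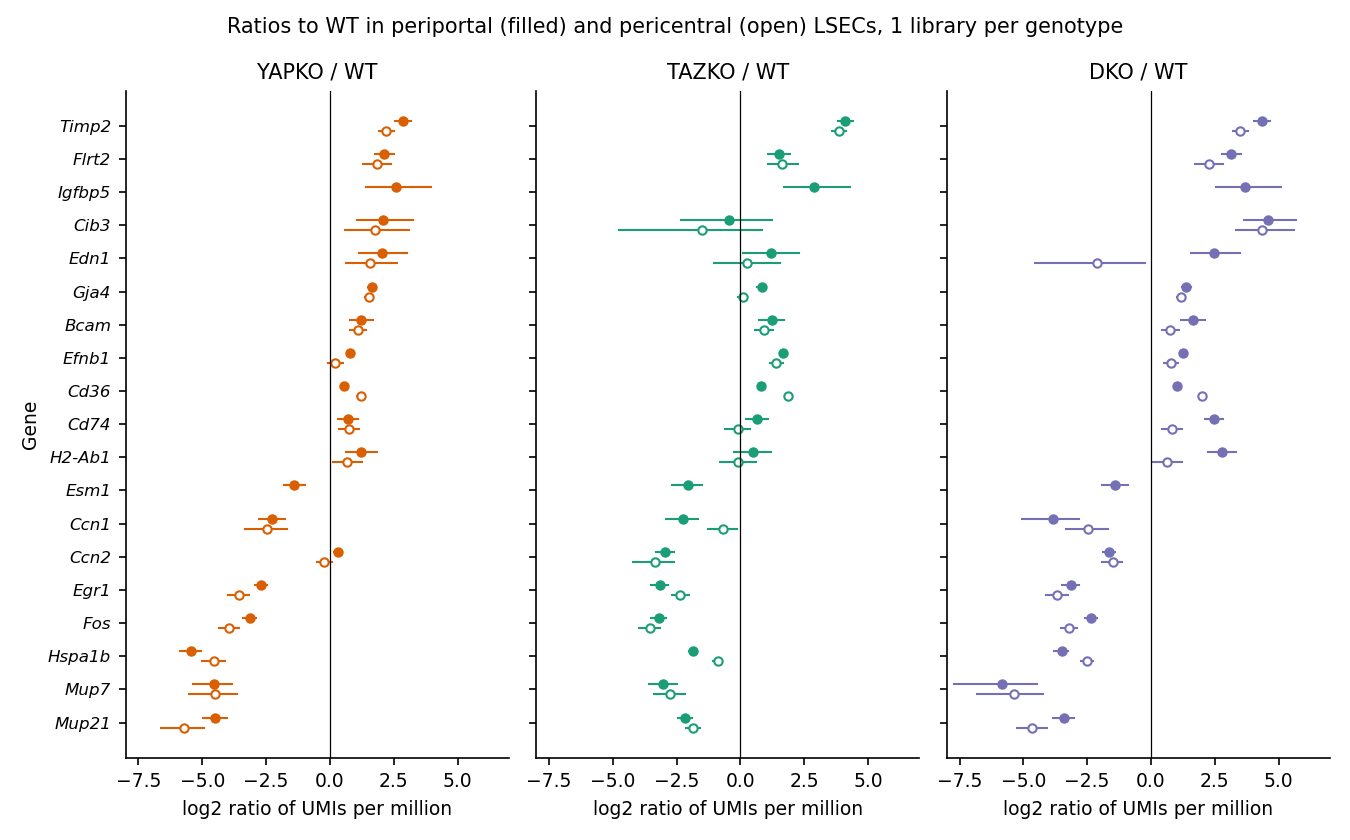
Log2 ratio of CPM to WT in periportal (filled) and pericentral (open) LSECs of YAPKO, TAZKO and DKO, 1 library each, for genes described in the text and chosen after their values were seen; bars are exact 95% intervals for counting error, and no point is drawn where a library had 0 UMIs (Esm1 and Igfbp5 in pericentral LSECs, at 0 in WT). Timp2 and Flrt2 lie above 0 and Fos, Egr1 and Hspa1b below 0 in the 3 panels.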

How the data were processed

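The authors deposited 1 matrix of UMI counts per mouse, made by them with Cell Ranger against mm10 (version 6.0.1 in the submitters' notes, 4.0.0 in the matrix headers). All 4 matrices were read, with 55488 genes. The selection rule and depth are given with the results. Members and gene lists were chosen with earlier results of these data known. Of the 26 lists, 2 genes, Fcn3 and Ccl21a, are not in the files. The result of the stellate cell list is not reported here.

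UMIs were summed per library and cell group. Zone contrasts were fitted with edgeR 4.0.16 (R 4.3.3; TMM factors, quasi-likelihood test, genes with a minimum count of 10, 27 genes of the rule left out) with the library as a block, since both sums of a library come from the same mouse per the labels, and p-values were adjusted by Benjamini-Hochberg. On simulated data, the fit called 93% of 2-fold changes between the zones and 41% against Vwf-positive ECs. Of unchanged genes it called 0.1% and 0.041%. Whether these rates hold for the measured counts of the 4 mice was not tested. Ratios to WT used CPM of the sums, for genes with at least 50 UMIs in the 2 libraries.

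Between cell groups, genes were named by size of the fold change among those past an adjusted p of 0.05, with at least 100 UMIs and the same direction in 4 libraries: 12 in each direction between the zones and 6 against Vwf-positive ECs. Against WT, where nothing was tested, genes with at least 100 UMIs were named by the ratio with 1 UMI added: 6 in each direction by the smaller ratio of YAPKO and DKO, where both had the same direction, and 5 by that of TAZKO. Genes of the rule, mitochondrial genes and the lists of hepatocyte, Kupffer, stellate, lymphocyte and neutrophil genes were left out of this naming, and list genes were named as members of their lists.

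Alternatives were DESeq2 1.42.0, no TMM factors, no filter on low counts, no library block, each library left out, cells thinned to 2000 UMIs, other limits of the rule, members without Msr1, and cells with over 1% hepatocyte UMIs left out. Doublets were kept, and the top 8% of Scrublet scores (scanpy 1.11.5) were left out as an alternative. Python 3.11.15, numpy 2.4.6, pandas 2.3.3, scipy 1.17.1 and matplotlib 3.10.9 were used.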

Additional observations from a re-analysis of the deposited data

Results flagged for a closer look

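For 16 genes of the lists, the ratio of a knockout library to WT pointed in opposite directions in periportal and pericentral LSECs, with neither 95% interval reaching 0. Each ratio rests on 1 mouse per genotype, and the difference between the zones was not tested. The share of all genes with such ratios is not given here, so that the count of 16 is no result about the lists. With the median ratio of all genes taken off in each zone, an alternative chosen after seeing the data, 10 of the 16 kept this. In 4, Ctsl, Fabp4, Col4a1 and Bmp2, both zones then pointed in the same direction. Of these, the periportal interval reached 0 for Ctsl, Fabp4 and Col4a1. Stmn1 and Apoa2 kept opposite directions, but 1 interval of each reached 0. Values are log2 ratios to WT, in periportal and then in pericentral LSECs.

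In DKO, Edn1 was at 2.48 and -2.11 (45 and 13 UMIs in periportal, 3 and 13 in pericentral LSECs), the Notch ligand gene Dll1 at 1.31 and -0.57, and the protease gene Ctsl at 0.051 and -0.31. In YAPKO, Sox17 was at 0.34 and -0.50 and Sparc at -0.045 and 0.10. Esm1 was at -1.39 in periportal LSECs of YAPKO. In pericentral LSECs it had 14 UMIs in YAPKO and 0 in WT, with a lower 95% limit of 1.73 for the log2 ratio.

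In TAZKO, the differences included 3 genes of dividing cells: Top2a was at 5.58 and -4.06, Cdk1 at 1.10 and -3.03, and Stmn1 at 0.47 and -2.06. Cells with at least 3 UMIs of 6 division genes numbered 6 periportal and 0 pericentral LSECs in TAZKO and 0 and 7 in WT. Among the other TAZKO genes, Adamts1 was at 0.56 and -0.42, Lyve1 at 0.27 and -0.64, and Hes1 at -0.26 and 0.51. Fabp4 was at 0.087 and -0.31, Col4a1 at 0.14 and -0.19, and Bmp2 at -0.15 and 0.07. Apoa2, a hepatocyte gene, was at -0.17 and 0.18.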

How the results depend on the processing

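Genes higher and lower in periportal than in pericentral LSECs numbered 330 and 389 in DESeq2, 51 and 67 without the library block, and 405 and 486 in cells thinned to 2000 UMIs; with each library left out in turn they ranged from 415 to 642 and from 472 to 800. Over all alternatives of this contrast, 299 of 302 values of named genes kept their call, and Cyp1a1, Esm1 and Selp lost it without the block. These genes were named for large fold changes and the same direction in 4 libraries, so that their share does not hold for all calls. Against Vwf-positive ECs, 167 were higher in DESeq2, 117 higher and 163 lower without the block, and 218 and 122 in thinned cells; with each library left out the higher genes ranged from 262 to 309 and the lower from 276 to 319. Over all its alternatives, 20 of 145 values of named genes lost their call.

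The share of periportal LSECs among ECs moved with the rule and with depth. With at least 2 UMIs it was 49.8% in WT and 45.4% in TAZKO, and with at least 4 UMIs 44.1% and 38.1%. At 3 times the pericentral UMIs it was 43.0%, 42.5%, 36.6% and 35.6%, without Msr1 33.3%, 37.8%, 30.9% and 28.4%, and in thinned cells 36.2%, 35.5%, 34.1% and 26.0%. Among cells with 500 to 6000 UMIs it was 40.4% in YAPKO and 39.3% in TAZKO.

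Genes past 2 times WT, higher and lower, numbered 68 and 153 in YAPKO and 124 and 158 in DKO with thinned cells, and 266 were then higher in TAZKO. With at least 20 UMIs they were 266 and 522 in YAPKO, 712 and 440 in TAZKO, and 370 and 493 in DKO; with at least 200 UMIs 31 and 91, 142 and 102, and 62 and 77; and past 1.5 times 501 and 561, 1568 and 789, and 712 and 627. TMM factors gave 374 lower in TAZKO, and cells with 500 to 6000 UMIs gave 59 higher in YAPKO. These counts changed with the genes and cells read, the scaling and the limit, and other causes were not tested. With the median ratio of all genes taken off in each zone, 10 of 16 genes with opposite ratios to WT in the zones kept them.

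With the other 3 genes summing to at least 2 UMIs, the left-out value of Kit was -2.09. Without Glul, an alternative chosen after seeing the data like the members without Msr1 in the zone fits, the hepatocyte zone difference was 0.075. Each genotype is 1 mouse, so that genotype, mouse and library cannot be told apart.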
